A study of Mus musculus with 24 samples.

Results

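Transcript levels in a class of hippocampal neuron were compared between 2 inbred mouse strains. The neurons are the excitatory nuclei that the authors placed in a cluster named for the entorhinal cortex (Exc-ENT), and the comparison is of 2 libraries of strain DBA/2J (D2) with 2 libraries of strain C57BL/6J (B6). Its members are the gene symbols with at least 1 count in each strain in Exc-ENT, since the gene lists counted for the strains differed. These were 20521 of the 33902 symbols in the table, of which 14198 passed the filter on low counts and were tested and 6323 did not. A further 6514 symbols had counts in D2 only, 1712 had counts in B6 only and 5155 had none in Exc-ENT, and these were left out.

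The nuclei came from the microdissected ventral hippocampus of adult male mice, 10 to 16 weeks old, and both strains were untreated. Each replicate combined tissue from about 2 animals, and nuclei were sorted so that neurons, marked by NeuN, made up most of each capture. Single-nucleus RNA sequencing (snRNA-seq) in droplets gave raw counts, which the authors added up within each cell type and library. B6 is the strain of the mouse reference genome, while D2 reads were aligned to the same genome with the known D2 single-base differences written into it. Exc-ENT held 4582764 and 4735960 counts in the B6 libraries, from 1072 nuclei by the authors' number, and 4170958 and 3201450 counts in the D2 libraries, from 925 nuclei. Libraries are called 2 and 3 as in the table, and since the labels use 1 and 2 only the strain of a library is known.

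The entorhinal cortex is the main gateway between the neocortex and the hippocampus. Its superficial layers send the perforant path to the dentate gyrus and the CA fields, its deep layers receive hippocampal output and pass it on, and entorhinal neurons are known for grid and other spatial firing. Levels below are CPM, counts scaled to a common library size after TMM normalization, and they are not divided by gene length, so they are compared between libraries and not between genes. Differences are log2 fold changes of D2 over B6, with their standard error (SE), and a transcript was called at an adjusted p under 0.05 in edgeR's quasi-likelihood test with Benjamini-Hochberg adjustment over the 14198 symbols. Unless stated otherwise, a named call was also made with DESeq2 and with each of the 4 libraries left out in turn, and each named call not made with DESeq2, other than that of Rpl41, was also lost without at least 1 library.

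Markers of both deep and superficial cortical layers were counted in Exc-ENT. For these markers, and for the summed markers of other cell types, CPM is given without TMM scaling. Tle4, a transcriptional corepressor of deep cortical layers, had a mean of 635 CPM over the 4 libraries, Tshz2 of 1306 CPM, Rorb of 276 CPM and Fezf2 of 36.0 CPM, all of them cortical regulators of transcription, while Nxph4, another deep-layer marker, was at 2.16 CPM and did not pass the filter. Among markers of superficial cortical neurons, Cux1 had a mean of 39.6 CPM, Reln (reelin) of 9.52 CPM, Calb1 of 3.22 CPM, Wfs1 of 2.79 CPM and Cux2 of 2.27 CPM. Since these levels are not per gene length they do not rank the markers and do not settle a layer, and the nuclei are called Exc-ENT below, by the name of their cluster. Markers of other cell types ranged widely. Among dentate markers Prox1 was at 2.23 CPM and C1ql3 at 30.9 CPM, and among interneuron markers Gad2 at 2.02 CPM and Adarb2 at 56.1 CPM. Among CA1 markers Fibcd1 was at 2.16 CPM and Galntl6, which overlaps 3 other annotated genes, at 1848 CPM. Among CA3 and CA2 markers Amigo2 was at 2.89 CPM and Spock1 at 344 CPM. Slc17a7, the vesicular glutamate transporter of excitatory neurons, was at 320.3 and 322 CPM in B6 and 285 and 341 CPM in D2, and its strains overlapped (log2 fold change -0.04, SE 0.09, adjusted p = 0.805).

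Of the 15 entorhinal and retrohippocampal markers, 13 were tested, 1 was higher and 4 were lower in D2, against 7.83% higher and 10.4% lower over all transcripts, and of the 10 without overlap on the strand 1 was higher and 1 lower. Rorb, a nuclear receptor of cortical layer 4, was at 236 and 228 CPM in B6 and 333 and 333 CPM in D2, higher in each D2 library than in either B6 library (log2 fold change 0.52, SE 0.08, adjusted p = 7.76e-05). Tshz2 was lower (log2 fold change -0.30, SE 0.08, adjusted p = 0.0084), although not without B6 library 2, and Reln was also lower (log2 fold change -1.28, SE 0.26, adjusted p = 0.00107). Tle4, Fezf2 and Etv1 had log2 fold changes of 0.01, 0.09 and 0.11 and were not called. Since the cluster can hold several kinds of neuron, a different mix of nuclei and a different level per nucleus cannot be told apart in these sums.

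Transcripts of oligodendrocytes, the myelin-forming glia, were lower in the D2 libraries. The summed level of the 6 markers was 138 and 143 CPM in B6 and 76.2 and 80.0 CPM in D2, with none at 0. Of the 6, 3 were called lower and none higher, against 10.4% and 7.83% over all transcripts. Of the 5 without overlap on the strand 2 were lower and none higher. The lower ones included Mbp (log2 fold change -0.73, SE 0.12, adjusted p = 0.000153) and Mobp (log2 fold change -1.89, SE 0.30, adjusted p = 6.38e-05). The part of this in the other transcript differences was not tested. The summed interneuron markers ranged from 95.6 to 122 CPM in B6 and from 79.6 to 98.7 CPM in D2, and the astrocyte markers from 627 to 672 and from 671 to 686 CPM. Most of the astrocyte sum was Slc1a2 (mean 638 CPM), while the other astrocyte markers had means of 0.765 to 10.9 CPM. None of the tested dentate (3 of 5), astrocyte (5 of 6), microglial (3 of 5) or vascular markers (2 of 5) was called. The summed vascular markers were nonetheless at 9.82 and 9.92 CPM in B6 and 16.8 and 16.2 CPM in D2. The 3 subicular markers summed to 35.1 and 37.2 CPM in B6 and 52.0 and 55.0 CPM in D2. Fras1, a marker of a CA1 cluster that overlaps a symbol counted in 1 strain only, and Spock1, a CA3 marker, were lower (-0.68, -0.43). Neurod6 and Nrgn, both of excitatory neurons, were higher (0.76 and 0.43). Nrgn, Camk2a (-0.24), the subicular gene Nts (0.91), Adarb2 (-0.52) and Vcan (-0.88) lost their call with DESeq2 and without at least 1 library. So did Trp73 (2.57), a Cajal-Retzius marker at 0.436 and 0.845 CPM in B6 and 3.12 and 5.31 CPM in D2, without TMM scaling. Its B6 level was very low, and a symbol that passes the filter through its higher strain alone has to differ. Adarb2 overlaps 2 symbols counted in 1 strain only.

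Replicates resembled each other more than strains did. Over the 11952 transcripts with a mean level of 5 CPM or more, log2 CPM of the 2 libraries of a strain correlated across transcripts at 0.987 in B6 and 0.984 in D2, against 0.934 to 0.946 between strains. Transcripts are not independent replicates, and these values have no test. The biological coefficient of variation was 0.0644.

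The strains differed in 2583 transcripts, or 18.2% of those tested. In D2 1111 were higher (7.83%) and 1472 were lower (10.4%), with median log2 fold changes of 0.75 and -0.64 among the called transcripts against 0.01 over all tested. Both D2 libraries lay on the same side of both B6 libraries for 2578 of the called transcripts, as they did for 57.4% of all transcripts tested. DESeq2, the tool the study used, called 300 higher and 737 lower, and all 1037 were among the edgeR calls in the same direction. At an absolute log2 fold change of at least 1, 362 were higher and 446 lower. With 2 libraries against 2, an exact permutation test of a single transcript cannot go below p = 0.33, so all p-values rest on the fit across transcripts. Of the tested symbols, 246 had under 10 counts in 1 strain and 218 of these were called, but a symbol that passes the filter through its higher strain alone has to differ.

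The calls moved with the position of a gene against other genes on its strand. Of the 10627 tested genes that overlapped no other annotated gene on their strand, 8.53% were higher and 7.58% lower in D2. Among the 1371 that overlapped a symbol counted in 1 strain only, 3.57% were higher and 29.9% lower, and among the 123 that overlapped 3 or more such symbols 43.1% were lower. Overlap with symbols not limited to 1 strain went with 6.94% higher and 11.4% lower (2017 genes). Symbols of 1 strain held 0.741% and 0.764% of the counts of the B6 libraries and 3.49% and 3.61% of those of the D2 libraries. When overlapping symbols were left out before the fit, 693 were higher and 845 lower. The part of the differing gene lists in the other differences was not tested, and an overlap with such a symbol is given below beside each called gene it touches. Of the other named genes, Btbd9, Camk2a, Cnih3, Fgf12, Fkbp5, Glo1, Grin2d, Grm4, Hspa8, Mobp, Mpdz, Pcdh11x, Reln, Slc17a7, Sv2c and Zranb2 overlapped only genes that were not limited to 1 strain.

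**Figure D1:**
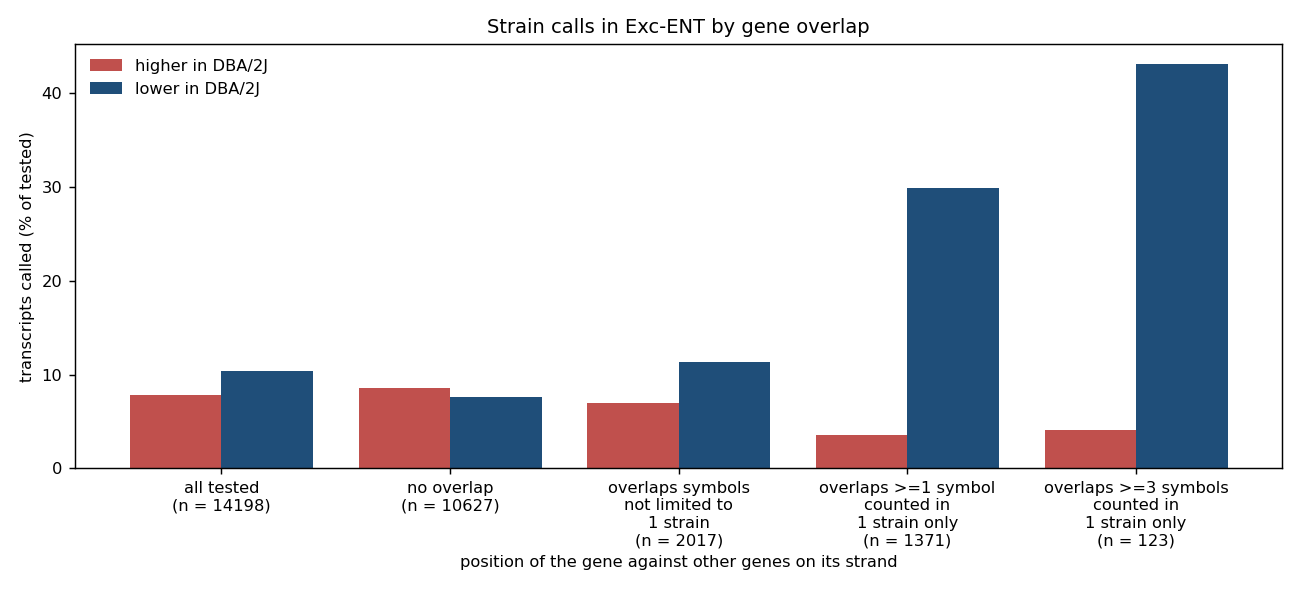
Share of tested Exc-ENT transcripts called higher (red) or lower (blue) in D2 at an adjusted p under 0.05, in percent, by the overlap of the gene with other genes on its strand. The share called lower was 7.58% without overlap and 29.9% with at least 1 overlapped symbol counted in a single strain.

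By gene type, protein-coding genes made up 11989 of the tested symbols, of which 7.73% were higher and 9.34% lower in D2. Of 541 long intergenic noncoding RNAs 68 were higher (12.6%) and 79 lower (14.6%). Antisense RNAs were called lower more often than higher, with 207 of 1070 lower (19.3%) and 59 higher (5.51%), and without overlap on their own strand 177 of 959 were lower (18.5%) and 56 higher (5.84%). The 3' libraries keep the strand of a molecule, but reads from an antisense RNA and its partner may still be assigned differently under differing gene lists, which was not tested.

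Among protein-coding genes with no overlapping gene on the strand, the largest increase in D2 was in Col11a1. This gene, which encodes a chain of the fibrillar collagen XI, lies on chr3:114030540-114220718 (mm10, plus strand) and was at 10.00 and 3.32 CPM in B6 and 119 and 100.3 CPM in D2. Both D2 libraries were about an order of magnitude above both B6 libraries (log2 fold change 4.05, SE 0.21, adjusted p = 2.08e-12). Stab2, a scavenger receptor for hyaluronan, was at 8.18 and 5.98 CPM in B6 and 77.9 and 104 CPM in D2 (log2 fold change 3.67, SE 0.19, adjusted p = 1.36e-12). Rnf121, a membrane-bound ubiquitin ligase, was at 48.4 and 45.2 CPM in B6 and 467 and 421 CPM in D2 (log2 fold change 3.25, SE 0.10, adjusted p = 1.14e-16). It was the most precisely measured of these increases, and its libraries differed little within each strain. Psat1, the phosphoserine aminotransferase of serine synthesis, rose from 1.59 and 2.88 CPM to 22.5 and 20.3 CPM (log2 fold change 3.24, SE 0.29, adjusted p = 2.47e-08), and Adam33, a metalloprotease, from 8.18 and 3.76 CPM to 44.7 and 48.1 CPM (log2 fold change 2.95, SE 0.22, adjusted p = 1.14e-09).

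Cntnap3, a neurexin-related contactin-associated protein, was at 5.45 and 3.76 CPM in B6 and 39.1 and 31.9 CPM in D2 (log2 fold change 2.95, SE 0.23, adjusted p = 1.83e-09). Mlycd, malonyl-CoA decarboxylase, was at 8.41 and 10.2 CPM in B6 and 62.0 and 56.6 CPM in D2 (log2 fold change 2.67, SE 0.17, adjusted p = 5.73e-11), and Lpl, lipoprotein lipase, was at 4.77 and 3.99 CPM in B6 and 20.7 and 24.1 CPM in D2 (log2 fold change 2.34, SE 0.25, adjusted p = 2.56e-07). In each of these the lowest D2 library was several times above the highest B6 library. The other 4 were Zfp951, a zinc finger gene (2.56), Irf2bp1, a transcriptional corepressor (2.41), Zc2hc1c (2.40) and Aox2, an aldehyde oxidase (2.34).

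With the same limits on level and counts, the largest decrease in this class was in Fggy, a carbohydrate kinase on chr4:95557507-95926939 (mm10, plus strand). Fggy was at 41.6 and 41.6 CPM in B6 and 4.39 and 2.19 CPM in D2 (log2 fold change -3.59, SE 0.24, adjusted p = 1.47e-10). Krt12, a keratin best known from the cornea, was at 21.4 and 17.7 CPM in B6 and 1.95 and 3.44 CPM in D2 (log2 fold change -2.89, SE 0.30, adjusted p = 2.21e-07). Mcmdc2, a meiotic relative of the MCM helicases, fell from 45.9 and 50.0 CPM to 9.28 and 12.2 CPM (log2 fold change -2.18, SE 0.18, adjusted p = 4.56e-09), and Col16a1, a collagen of the FACIT family, from 21.1 and 30.6 CPM to 5.37 and 5.63 CPM (log2 fold change -2.23, SE 0.25, adjusted p = 7.10e-07). Rgs9, which speeds the GTPase of G protein alpha subunits and is abundant in striatum and retina, was at 37.3 and 31.7 CPM in B6 and 10.7 and 7.19 CPM in D2 (log2 fold change -1.91, SE 0.20, adjusted p = 3.33e-07). That none of these overlapped between strains was part of how they were chosen. Snrpf, a core spliceosomal protein, and Rbm20, a splicing regulator, had log2 fold changes of -1.98 and -2.08, and Dcdc2b, Ppm1m and Sult2b1 of -2.12, -1.96 and -1.66. Rpl29, a ribosomal protein gene, was lower (-2.73), while its pseudogenes Rpl29-ps1 and Rpl29-ps2 had 13 and 5 and 8 and 10 counts in D2 and 0 in B6, so that its value is uncertain.

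**Figure D2:**
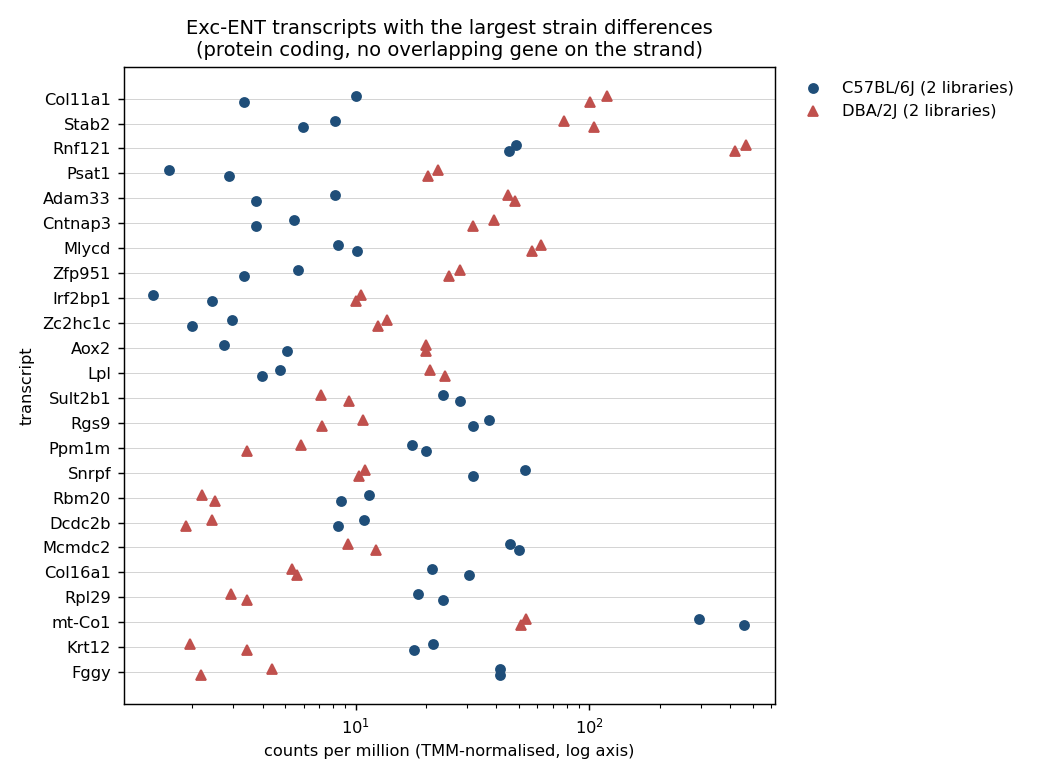
Level of the 24 protein-coding, non-overlapping transcripts with the largest differences, in TMM-normalized CPM on a log axis, with B6 libraries as blue circles and D2 libraries as red triangles. The choice of the 24 also required a mean of at least 5 CPM, at least 10 counts in each strain and no overlap between strains.

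When overlapping and noncoding genes were kept, other symbols led the list, and many had a partner counted in D2 only. Atp5o, a subunit of the mitochondrial ATP synthase, was at 23.4 and 21.5 CPM in B6 and 361 and 341 CPM in D2 (log2 fold change 3.97, SE 0.11, adjusted p = 3.85e-17), and its twin symbol Atp5o.1 had 118 and 103 counts in D2 and 0 in B6. Arhgap26, a GTPase activating protein, went the other way, from 383 and 373 CPM to 25.4 and 25.3 CPM (log2 fold change -3.90, SE 0.11, adjusted p = 3.85e-17), while Arhgap26.1 had 843 and 632 counts in D2 and 0 in B6. Zfp91 (-4.16) and Pakap.1 (-3.50) also had twin symbols with counts in D2 only, in Zfp91.1 57 and 52 and in Pakap.2 6 and 2. Pisd, phosphatidylserine decarboxylase, was higher (log2 fold change 3.39, SE 0.11, adjusted p = 2.05e-16), it overlaps a symbol counted in 1 strain only, and its pseudogene Pisd-ps2 had 1470 and 1217 counts in D2 and 0 in B6. Schip1 (-4.12), Cox16 (-4.74), Glcci1 (-5.31), Umad1 (-4.00) and Rab43 (-3.87) each overlapped a symbol counted in 1 strain only. For these symbols the level of the gene and its share of the reads cannot be told apart.

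Noncoding transcripts without an overlapping gene were also among the largest. Gm20324 was at 2.50 and 1.55 CPM in B6 and 61.8 and 48.8 CPM in D2 (log2 fold change 4.76, SE 0.25, adjusted p = 1.64e-12). Gm13026 rose from 0.454 and 2.21 CPM to 20.3 and 14.7 CPM (3.69 on the log2 scale) and 4930568G15Rik from 2.95 and 0.664 CPM to 19.5 and 25.9 CPM (3.62), while Gm44649 fell from 23.4 and 18.2 CPM to 2.20 and 0.625 CPM (-3.76). Dnajc5b, a cysteine string protein paralogue, Gm38394 and Gm49692 overlapped other genes and had log2 fold changes of 3.78, 3.57 and 2.98.

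The most abundant called transcripts moved little. Snhg11, a nuclear-retained noncoding RNA of neurons, was at 5703 and 5331 CPM in B6 and 8816 and 8573 CPM in D2 (log2 fold change 0.66, SE 0.06, adjusted p = 2.06e-08), and it overlaps a symbol counted in 1 strain only. Dpp10, an auxiliary subunit of Kv4 channels, was at 9543 and 10261 CPM in B6 and 7530 and 8270 CPM in D2 (log2 fold change -0.33, SE 0.06, adjusted p = 0.00048), and Ptprd, Nrg3, Csmd1, Dlg2 and Pcdh9 had log2 fold changes of -0.20, -0.23, -0.25, -0.35 and -0.31. All 6 of these lower transcripts overlapped another annotated gene on the strand, Dlg2 22 of them, and all but Nrg3 overlapped a symbol counted in 1 strain only. Cmss1 was higher (0.53), while Cntn4 (0.34), Pde1a (0.24), the SNARE protein gene Snap25 (0.21) and Zranb2 (0.21) were not called with DESeq2 and lost the edgeR call without at least 1 library.

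Of the 13 protein-coding genes of the mitochondrial genome, 8 were lower in D2 and none was higher, against 10.4% and 7.83% over all transcripts. mt-Co3, a subunit of cytochrome c oxidase, had 1931 and 2979 counts in B6 and 11 and 4 in D2, and mt-Co2 had 1227 and 2119 against 3 and 5. mt-Nd3 and mt-Nd4l, subunits of complex I, had 204 and 294 and 104 and 223 counts in B6 against 1 and 0 for each in D2, and mt-Atp6 1660 and 2846 against 31 and 19. By contrast mt-Cytb (804 and 1386 counts in B6, 1040 and 652 in D2), mt-Nd1, mt-Nd2, mt-Nd5 and mt-Atp8 were not called, with log2 fold changes from -0.27 to -0.00. The remaining 3 lower genes were mt-Co1 (-2.85), mt-Nd4 (-0.67) and mt-Nd6 (-1.05), of which the last 2 were not called with DESeq2 or without B6 library 3. Without B6 library 3, mt-Nd1 and mt-Cytb were called higher in D2 (0.43 and 0.33), and without B6 library 2 lower (-0.48 and -0.42). The ribosomal RNAs mt-Rnr1 and mt-Rnr2 were counted in D2 only (4804 and 2831, and 12323 and 7920). The summed level of the 13 genes was 2141 CPM in B6 library 2 and 3573 CPM in B6 library 3, so that it also differed within B6. In D2 libraries 2 and 3 it was 970 and 769 CPM. Only 6 of the 13 genes overlapped no other annotated gene on the strand, and of these 4 were lower and none higher. The 13 genes adjoin one another on the mitochondrial genome, and the part of the differing gene lists in their values was not tested.

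Nuclear-encoded subunits of the respiratory chain were called only in the opposite direction. Of 32 tested members, 7 were higher and none was lower, with a median log2 fold change of 0.27 against 0.01 over all transcripts and a background of 7.83% called higher. Cox5a was at 27.7 and 30.6 CPM in B6 and 46.4 and 52.2 CPM in D2 (log2 fold change 0.75, SE 0.14, adjusted p = 0.000494), and Cox6a1 rose from 39.8 and 31.0 CPM to 55.4 and 60.6 CPM (log2 fold change 0.71, SE 0.14, adjusted p = 0.000769). Ndufa4 was also higher (log2 fold change 0.65, SE 0.14, adjusted p = 0.00205), while Atp5g3 (0.75) was not called with DESeq2 or without D2 library 3. Of the 43 cytosolic ribosomal protein genes 4 were higher and 3 lower (median 0.14), near the 7.83% and 10.4% over all transcripts, among them Rpl41 (0.55), Rpl15 (-0.70), Rpl27 (-1.07) and Rpl13a (-2.40). These genes have many near-identical pseudogenes, Rpl13a also overlaps 6 other annotated genes, and Rpl41 was not called with DESeq2 (adjusted p = 0.0503).

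Receptors for glutamate, the transmitter of these neurons, were more often lower than higher in D2. Of 25 tested AMPA, kainate and NMDA receptor genes 9 were lower and 1 higher, against 10.4% and 7.83% over all transcripts, and the median log2 fold change was -0.17. Gria1, an AMPA receptor subunit, was at 657 and 681 CPM in B6 and 462 and 415 CPM in D2 and overlapped no gene on its strand (log2 fold change -0.61, SE 0.08, adjusted p = 4.41e-06). The NMDA receptor subunit Grin2d was higher (0.59), and the auxiliary subunits Cacng3 and Cnih3 were lower (-0.39 and -0.47), but these 3 calls were lost with DESeq2 and without at least 1 library. Of the 13 members without overlap 4 were lower and none higher. The metabotropic list had 6 of 10 lower and none higher (median -0.28), but only 4 of the 10 were free of overlap and 1 of those was lower. Homer1, a scaffold that couples these receptors to calcium stores, was at 151 and 151 CPM in B6 and 85.2 and 86.6 CPM in D2 (log2 fold change -0.82, SE 0.10, adjusted p = 1.58e-06) and overlaps 2 symbols counted in 1 strain only. Grm4, a presynaptic receptor, fell from 38.9 and 33.7 CPM to 21.2 and 16.9 CPM (log2 fold change -0.91, SE 0.17, adjusted p = 0.000431), and Grm5 and Grm7, which overlap 5 symbols counted in 1 strain only and 1, had log2 fold changes of -0.31 and -0.31.

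Of 14 tested GABA receptor genes, including the scaffold Gphn, 4 were lower and 1 higher (median -0.13), against 10.4% and 7.83% over all transcripts. Of the 9 members without overlap 2 were lower and none higher. Gabrg3 fell from 1058 and 994 CPM to 831 and 727 CPM (log2 fold change -0.40, SE 0.08, adjusted p = 0.000674) and overlaps 2 symbols counted in 1 strain only. Gabra2 (-0.31) and Gphn (0.24), which overlaps 3 such symbols, lost their calls with DESeq2 and without at least 1 library.

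Ion channels that set excitability also held more lower than higher calls. Among 40 potassium and HCN channel genes 11 were lower and 3 higher (median -0.20), against 7.83% higher and 10.4% lower over all transcripts, and among the 26 members without overlap 5 were lower and 3 higher, against 8.53% higher and 7.58% lower over all transcripts without overlap. Kcnip4, a Kv4 channel subunit, was at 2947 and 2745 CPM in B6 and 1138 and 1100 CPM in D2 (log2 fold change -1.35, SE 0.07, adjusted p = 7.80e-13), but it overlaps 24 symbols counted in 1 strain only. Kcnip3 fell from 232 and 207 CPM to 128 and 112 CPM (-0.87) and overlaps a symbol counted in 1 strain only, and the small-conductance channel gene Kcnn1 was higher (1.10) but not with DESeq2 or without B6 library 2 or D2 library 2. Of 26 sodium and calcium channel genes 6 were lower and 1 higher (median -0.15). Cacna1a, the pore of P/Q-type calcium channels, was at 938 and 853 CPM in B6 and 596 and 568 CPM in D2, with no overlapping gene (log2 fold change -0.62, SE 0.08, adjusted p = 2.05e-06). Fgf12 and Fgf14, which bind sodium channels, were lower (-0.43 and -0.34), Fgf14 overlapping 2 symbols counted in 1 strain only, and Cacna1i, a T-type channel, was higher (0.50) but not with DESeq2 or without B6 library 3 or D2 library 2.

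In the vesicle release machinery 7 of 36 were lower and 2 higher (median -0.11), against 7.83% higher and 10.4% lower over all transcripts, and among the 18 members without overlap 3 were lower and 1 higher (median 0.06). The synaptic vesicle protein gene Sv2c went the other way and was at 10.7 and 11.1 CPM in B6 and 53.5 and 52.8 CPM in D2 (log2 fold change 2.29, SE 0.16, adjusted p = 4.64e-10). Its paralogue Sv2b was lower (-0.31), although not without D2 library 2, and so were Rab3c (-0.57) and Stxbp5l (-0.41), Stxbp5l overlapping a symbol counted in 1 strain only. Of 39 synaptic adhesion genes 11 were lower and 1 was higher, but among the 18 without overlap 2 were lower and 1 higher. Cntnap5a had no overlapping gene and was at 60.9 and 75.5 CPM in B6 and 22.9 and 29.4 CPM in D2 (log2 fold change -1.40, SE 0.15, adjusted p = 3.55e-07), and Flrt3 fell from 126 and 114 CPM to 84.2 and 69.1 CPM (log2 fold change -0.64, SE 0.11, adjusted p = 0.000218). Cntnap2 (-0.87) and Cntnap5b (-0.69) overlap 23 such symbols and 1.

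Cadherins and protocadherins were called in both directions, 6 of 20 higher and 7 lower (median -0.09), against 7.83% higher and 10.4% lower over all transcripts, while among the 10 without overlap 5 were higher and 1 lower (median 0.33). Cdh9 was at 95.2 and 92.1 CPM in B6 and 141 and 149.7 CPM in D2 (log2 fold change 0.63, SE 0.10, adjusted p = 5.32e-05), and Cdh12 fell from 88.8 and 70.2 CPM to 50.3 and 51.6 CPM (-0.64) and overlaps 7 other annotated genes. Cdh7 (1.00) and Pcdh11x (-0.46) were not called with DESeq2 or without each of several libraries (3 for Cdh7, 2 for Pcdh11x). In axon guidance 8 of 36 were lower and 1 higher (median -0.16). Sema6a, a transmembrane semaphorin, was at 13.2 and 22.1 CPM in B6 and 38.8 and 38.4 CPM in D2 (log2 fold change 1.12, SE 0.19, adjusted p = 0.000133). The secreted semaphorin gene Sema3e was lower (-0.53) and overlaps 2 symbols counted in 1 strain only. Sema3c (-0.63) and the ephrin gene Efnb2 (-0.54), which overlaps 3 such symbols, were not called with DESeq2 or without D2 library 2, nor Efnb2 without B6 library 2.

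Activity-regulated and clock genes were called in both directions. Of 14 immediate early genes 2 were higher and 2 lower, the latter Nr4a3 (log2 fold change -0.84, SE 0.18, adjusted p = 0.00154) and Homer1. Jun and Junb had log2 fold changes of 0.94 and 1.09, but in Junb D2 library 2 was at 27.8 and D2 library 3 at 58.1 CPM, and both calls were lost with DESeq2 and without D2 library 3. Of 13 clock genes 1 was higher, Rorb, and 4 were lower, of which Rora fell from 710.2 and 711 CPM to 564 and 501 CPM (log2 fold change -0.42, SE 0.08, adjusted p = 0.000457), while Per1 (-0.74) and Arntl (-0.46) were not called with DESeq2 or without each of 2 libraries. Of 15 chaperone and stress genes 4 were lower and none higher, against 7.83% higher and 10.4% lower over all transcripts, and of the 11 without overlap 2 were lower (median 0.00). Hspa8, the constitutive Hsc70 chaperone, was at 75.9 and 93.0 CPM in B6 and 36.1 and 53.1 CPM in D2 (log2 fold change -0.94, SE 0.15, adjusted p = 5.46e-05), and Fkbp5 (-0.76), Hsph1 (-0.56) and Sgk1 (-0.32) were not called with DESeq2 or without at least 1 library.

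Of 20 genes of cholesterol synthesis 2 were lower and none higher, with a median of 0.00, and the share lower was near the 10.4% over all transcripts. Nsdhl, a sterol dehydrogenase, was at 19.1 and 18.4 CPM in B6 and 6.10 and 6.56 CPM in D2 (log2 fold change -1.57, SE 0.24, adjusted p = 3.93e-05), and Srebf2, which overlaps a symbol counted in 1 strain only, had a log2 fold change of -0.45. Of 19 genes of DNA methylation and methyl-CpG binding 1 was lower and none higher. The called gene was Cxxc5, which binds unmethylated CpG and was at 15.0 and 15.1 CPM in B6 and 4.39 and 6.88 CPM in D2 (log2 fold change -1.44, SE 0.27, adjusted p = 0.000422), and it overlaps another annotated gene. Of 7 tested MHC class I genes H2-T24 was lower (log2 fold change -0.81, SE 0.16, adjusted p = 0.000665) and H2-K1, at 1.36 and 1.11 CPM in B6 and 5.13 and 3.13 CPM in D2, was higher (log2 fold change 1.75, SE 0.50, adjusted p = 0.0163), but not with DESeq2 or without each of 3 libraries. Reads of this family can be shared between members, so these values are uncertain.

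**Figure D3:**
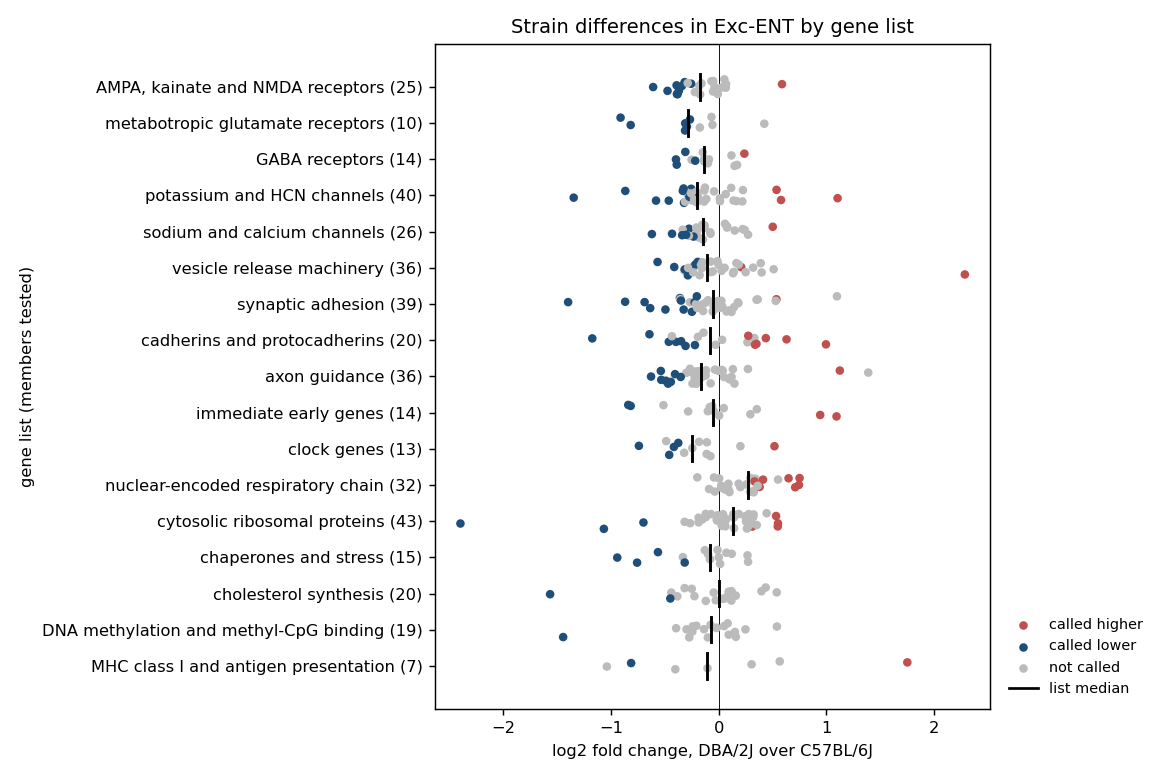
Log2 fold change of D2 over B6 for every tested member of 17 gene lists, with called members in red (higher) or blue (lower), members not called in grey and the list median as a black bar. The list medians lie between -0.28 for the metabotropic glutamate receptors and 0.27 for the nuclear-encoded respiratory chain, against 0.01 over all transcripts.

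A list of 12 genes known for sequence differences between B6 and D2 had 9 tested members. Of these 3 were higher and 2 lower, against 7.83% and 10.4% over all transcripts. Alad, the aminolevulinate dehydratase of haem synthesis, was at 2.95 and 4.65 CPM in B6 and 11.0 and 16.9 CPM in D2 (log2 fold change 1.84, SE 0.31, adjusted p = 0.000169). Its neighbour Hdhd3 was at 1.59 and 0.664 CPM in B6 and 4.39 and 5.63 CPM in D2 (log2 fold change 2.11, SE 0.50, adjusted p = 0.00407), although not with DESeq2 or without B6 library 3 or D2 library 3, and both lie in a segment known to be duplicated in D2. Kcnj9, a GIRK channel gene, was at 41.8 and 41.6 CPM in B6 and 56.4 and 65.3 CPM in D2 (log2 fold change 0.54, SE 0.13, adjusted p = 0.00413), and its call was lost with DESeq2 and without D2 library 3. Gabra2, a GABA-A receptor subunit, was at 101 and 113 CPM in B6 and 89.3 and 82.8 CPM in D2 (log2 fold change -0.31, SE 0.10, adjusted p = 0.0417), and lost its call with DESeq2 and without each of 3 libraries. Mpdz, a multi-PDZ scaffold, had a log2 fold change of -0.56 and was not called with DESeq2 (adjusted p = 0.0543) or without D2 library 3. Glo1, Myo5a and Nnt had log2 fold changes of 0.08, -0.03 and -0.29 and were not called, and Taar1, Tyrp1 and Gpnmb did not pass the filter.

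Chromatin accessibility, which the transcript comparison did not use, was measured by snATAC-seq in the same cluster, with 5020155 and 8014138 counts in B6 and 7446101 and 8380239 in D2. These were other libraries, and their nuclei were named by transfer of the snRNA-seq labels. Of 12630 tested transcripts with a peak within 1000 bp of the gene start, 65 had a peak called higher in D2 (0.515%) and 52 a peak called lower (0.412%). Among the 987 transcripts called higher, 32 had a peak called higher (3.24%) and 4 a peak called lower (0.405%). Among the 1219 called lower, 24 had a peak called lower (1.97%) and 4 a peak called higher (0.328%). Most transcript calls therefore had no called peak at the start site, with median peak log2 fold changes of 0.03 and -0.02. In all 56 transcripts had a called peak that went with them and 8 a called peak that went against them. With DESeq2 on the peaks these counts were 23 and 2, and without B6 library 3 the former was 32.

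The start-site peak of Fggy had 175 and 240 counts in B6 and 35 and 40 in D2 (log2 fold change -2.75, SE 0.17, adjusted p = 1.05e-39). That of Alad had 82 and 123 counts in B6 and 356 and 386 in D2 (1.58, SE 0.12, adjusted p = 3.77e-27), and that of Hdhd3 lay 809 bp from the gene start (1.71, SE 0.12, adjusted p = 2.28e-34). Both genes lie in the segment known to be duplicated in D2, and the part of the extra copy in these peak counts was not tested. Col11a1 had 58 and 79 peak counts in B6 and 128 and 151 in D2 (0.74, SE 0.17, adjusted p = 0.00201), a smaller difference than its transcript. Lpl had a peak log2 fold change of 0.82 (SE 0.17, adjusted p = 0.000279). Ucp2, a mitochondrial uncoupling protein chosen after its values were seen, had 11 and 31 peak counts in B6 and 79 and 94 in D2, and its transcript had 1 and 0 counts in B6 and 17 and 8 in D2, a call lost with DESeq2, and without D2 library 2 it did not pass the filter. Directions were opposed for Zfp951, whose transcript was higher while its peak had 24 and 25 counts in B6 and 0 in both D2 libraries. They were also opposed for Scn1a, a sodium channel gene (transcript -0.28, peak 0.79), and Btbd9 (transcript -0.86, peak 0.75), both chosen after their values were seen. The Scn1a call was lost with DESeq2 and without B6 library 3, D2 library 2 or D2 library 3. Its peak is also the start-site peak of Gm13629, whose transcript was higher (0.57), so that this peak stands in both counts. How the Gm13629 call fared under the alternatives is not given here.

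The 250 bases before the RefSeq start site of 4 of these genes are printed because they lie within or across the peaks that moved with the transcript. They are reference (GRCm38.p6) sequence from RefSeq, 5' to 3' on the strand of the gene, with each CpG in capitals, and no D2 base is shown. Among 32851 such RefSeq windows, 92.1% hold at least 1 CpG, with a median of 6. Fggy lies on chr4:95557257-95557506 (plus) and holds 7 CpG, Alad on chr4:62519910-62520159 (minus) with 25, Col11a1 on chr3:114030290-114030539 (plus) with 7 and Ucp2 on chr7:100493108-100493357 (plus) with 16.
Fggy: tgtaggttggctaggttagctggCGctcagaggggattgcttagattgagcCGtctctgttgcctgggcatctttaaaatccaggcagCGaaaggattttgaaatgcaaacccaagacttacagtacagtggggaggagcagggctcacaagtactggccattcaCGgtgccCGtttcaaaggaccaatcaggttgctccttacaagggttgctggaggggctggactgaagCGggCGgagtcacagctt
Alad: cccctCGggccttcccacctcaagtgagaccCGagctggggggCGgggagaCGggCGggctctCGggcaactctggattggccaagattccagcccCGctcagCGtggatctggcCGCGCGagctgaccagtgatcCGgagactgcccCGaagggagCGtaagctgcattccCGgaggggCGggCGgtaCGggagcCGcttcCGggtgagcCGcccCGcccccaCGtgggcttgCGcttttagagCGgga
Col11a1: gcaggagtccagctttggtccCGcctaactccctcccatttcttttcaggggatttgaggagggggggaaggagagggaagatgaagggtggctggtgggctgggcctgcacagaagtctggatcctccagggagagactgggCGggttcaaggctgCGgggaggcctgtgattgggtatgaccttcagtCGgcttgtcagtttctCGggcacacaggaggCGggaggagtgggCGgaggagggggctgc
Ucp2: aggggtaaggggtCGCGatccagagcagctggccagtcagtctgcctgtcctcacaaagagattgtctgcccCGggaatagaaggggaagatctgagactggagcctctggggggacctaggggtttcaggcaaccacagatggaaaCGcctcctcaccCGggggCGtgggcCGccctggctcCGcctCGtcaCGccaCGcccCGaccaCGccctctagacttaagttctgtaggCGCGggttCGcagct

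**Figure D4:**
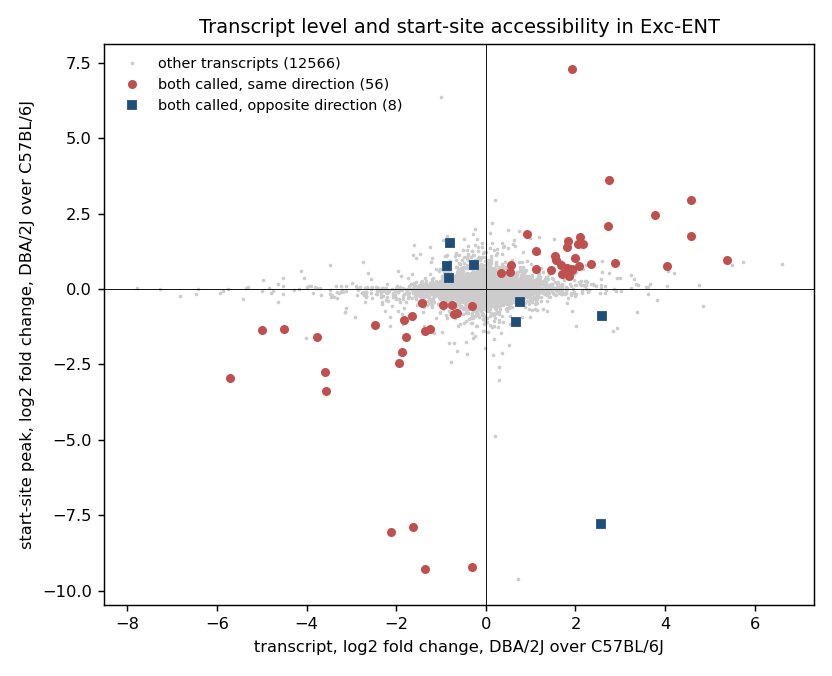
Log2 fold change of the start-site snATAC-seq peak against that of the transcript, both D2 over B6, for 12630 Exc-ENT transcripts, with red circles where both were called in the same direction, blue squares where both were called in opposite directions and grey points for the rest. Both were called in the same direction for 56 transcripts and in opposite directions for 8.

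The study asked whether mutations at methylated CpG sites bear more on the ratio of D2 to B6 transcripts where CpG density is high. It took the density around each site in a gene interval, mainly for excitatory neurons of the dentate gyrus. Here the density was taken from the 2000 bp centred on the gene start. No mutation or methylation value entered, and shares of calls are given in place of mean ratios, so the study's finding was not tested. Of 7088 transcripts with more than 40 CpG per kb 6.88% were higher (95% exact binomial interval 6.31 to 7.50) and 8.75% lower (8.10 to 9.43). Of 6914 at lower density 8.79% were higher (8.14 to 9.49) and 11.8% lower (11.1 to 12.6). The medians of the log2 fold change were 0.01 in both classes, and the median level was 28.5 CPM at high and 15.4 CPM at low density. Without overlapping genes 7.64% and 5.40% were higher and lower at high density and 9.40% and 9.62% at low density. These intervals treat transcripts as independent and cover counting only, and the part of the level in the difference was not tested.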

How the data were processed

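Of the 24 samples of the series, the 4 snRNA-seq libraries were used with the snATAC-seq counts of the same cell type. The authors deposited raw counts per gene symbol, summed over the nuclei of each cell type and library, and snATAC-seq counts per peak likewise. Per the submitters' notes these came from Cell Ranger 6.0.2, Seurat 4.0.5 and Cell Ranger ATAC 2.0.0 on mm10, and D2 reads were mapped to an mm10 with D2 single-base differences. The annotation release of the counts is not given in the sources used here. No column, of Exc-ENT or of the other cell types, could be matched to a single sample. Columns of the other cell types (64 from snRNA-seq, 56 from snATAC-seq) stayed out, so that a planned comparison with other excitatory neurons was not run.

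Symbols with at least 1 count in each strain were filtered with filterByExpr, scaled by TMM and tested with edgeR 4.0.16 (quasi-likelihood, Benjamini-Hochberg) in R 4.3.3, with DESeq2 1.42.0 as an alternative. Each standard error is the fold change over the root of its F. Groups were the strains in the labels. The labels do not tie a column to a replicate, pools are the only replicates, and p-values measure the spread between 2 libraries per strain. The main edgeR fits of transcripts and of peaks and the DESeq2 fit of transcripts were tested on simulated data, and the other fits were not. Positions, gene types and overlaps came from GENCODE vM21, which matched 32709 of 33902 symbols in 1 entry and may not be the release counted. Members and gene lists were chosen with earlier results of these data known.

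Genes were named by rule. The first were the 12 largest called changes in each direction, over all symbols and over non-overlapping protein-coding genes. These had a mean level of 5 CPM or more, 10 or more counts per strain and no overlap between the libraries of the strains. The others were the 6 most abundant calls in each direction, up to 4 called members of each list, the tested genes with known sequence differences and cell type markers. Members of the mitochondrial list beyond 4, twin symbols and pseudogenes of named genes, and H2-K1 were chosen after their values were seen. A few genes that this rule names are not reported here.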

Additional observations from a re-analysis of the deposited data

How the results depend on the processing

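The count of called transcripts, 2583 (1111 higher and 1472 lower), moved by over 1.5 times with the test, the symbols kept and a fold limit. DESeq2 gave 1037 (300 and 737), leaving out overlapping symbols 1538 (693 and 845), and an absolute log2 fold change of at least 1 gave 808 (362 and 446). The following were chosen after seeing the data. Keeping symbols of 1 strain gave 4339, with 2543 higher. DESeq2 without overlapping symbols gave 568 (199 and 369), DESeq2 at the fold limit 449 (165 and 284), and edgeR without overlapping symbols at the fold limit 493 (258 and 235). Without overlapping symbols, leaving out B6 library 2, B6 library 3, D2 library 2 or D2 library 3 gave 1540, 1079, 1403 and 1072 (673, 487, 627 and 488 higher, and 867, 592, 776 and 584 lower). With all symbols it gave 1764 to 2379 (701 to 985 higher, 1051 to 1394 lower), with 713 higher without B6 library 3 and 701 without D2 library 3.

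Start-site peaks that went with the transcript numbered 56, 23 with DESeq2 and 32 to 46 without 1 library. Those that went against it numbered 8, 2 with DESeq2 and 3 to 7 without 1 library.

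The library number as a replicate block gave 1208 higher and 1485 lower, but the deviations of same-numbered libraries correlated at -0.054, so the numbers are not taken as pairs. Of the named transcripts, mt-Nd1 ranged from -0.48 to 0.43 and mt-Cytb from -0.42 to 0.33 on the log2 scale when 1 library was left out, called lower without B6 library 2 and higher without B6 library 3. Without B6 library 3, mt-Nd2 and mt-Nd5 also turned from -0.22 and -0.27 to 0.31 and 0.23 without a call there, while both were called lower without B6 library 2 (-0.61 and -0.65). The other named transcripts whose sign turned under an alternative were called neither there nor in the comparison as reported. The planned choice of symbols over all cell types and the comparison with other excitatory cell types were not run, since the other columns were not used. The CpG shares kept within their intervals at 38 CpG per kb. The causes of the changes in count were not tested, except that a fold limit or fewer symbols lowers a count by construction. With 2 pools per strain, transcripts of few counts are measured least precisely.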
